A study of Mus musculus with 2 samples.

Results

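The nuclei described here were 57 fibroblastic nuclei of the callus and hematoma that formed by day 5 after musculoskeletal traumatic injury (MTI) in C57BL6 mice. They were chosen by their counts of unique molecular identifiers (UMIs, one per captured transcript molecule). A nucleus entered when it held at least 10 UMIs of Col1a1, Col1a2, Col3a1, Col5a1, Postn and Pdgfra together (the fibroblastic sum, S). Its UMIs of 5 macrophage genes and of 4 endothelial genes each had to stay below S. Its UMIs of 7 cartilage and bone genes (Acan, Col2a1, Col9a1, Col11a1, Matn3, Hapln1 and Ibsp) could not exceed those of 5 progenitor genes (Dpp4, Pi16, Pgr, Ly6a and Cd34). The 57 nuclei were 5.06% (exact 95% binomial interval 3.85% to 6.50%) of the 1127 nuclei retained from 1446 barcodes, and 37.75% of the 151 retained nuclei that met the fibroblastic, macrophage and endothelial conditions. Intervals here and below cover counting error only.

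MTI combines an open tibial fracture with compression of the muscles around the tibia. The series holds 1 single-nucleus RNA library of this kind and 1 library of periosteum and hematoma taken at day 1 after fracture alone, each pooled from 3 or 4 C57BL6 mice and each sorted for DNA-stained nuclei. No transgene or deletion is named for either, and per the study's methods adult males and females were mixed. With 1 library per condition, the injury, the day and the library cannot be told apart, so no test was made and no p-value is given. The day 5 library held 5899407 UMIs, and its deposited barcodes held between 500 and 45740 UMIs with a median of 2246. The 57 nuclei held 373399 UMIs, between 853 and 15873 per nucleus with a median of 5779. The 2 libraries shared 33 barcodes, none of them among the 57.

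The set had been proposed as the progenitor side of the fibroblastic nuclei, and its own marker counts went against that name. No UMI of any of the 5 progenitor genes was found in 43 of the 57 nuclei. All 43 also had no cartilage or bone UMI, so they entered on a tie of 0 with 0. A progenitor UMI was found in 14 nuclei, 7 of them with a single one. The 57 nuclei are therefore called cartilage-poor fibroblastic nuclei. The name follows the rule's sums and does not hold for all of them. Muscle marker UMIs at least equalled S in 6, and mural marker UMIs did in 4 others (below). The 94 fibroblastic nuclei on the other side of the same line are called chondro-osteogenic nuclei, and they held 680202 UMIs with a median of 5772 and a range of 638 to 20473.

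Dpp4 encodes a cell surface peptidase and Pi16 a secreted peptidase inhibitor, and both mark connective tissue fibroblasts of the adventitia, the sheath around vessels. Such fibroblasts are regarded as a source of more specialised fibroblasts. In bone repair, skeletal stem and progenitor cells (SSPCs) of the periosteum lose these markers and pass through an injury-induced fibrogenic cell (IIFC) state rich in collagens and periostin. Cartilage and bone cells follow from that state.

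Pgr, which encodes the progesterone receptor, was found in 3 nuclei, and these also held 38 of the 43 Dpp4 UMIs. The 250 bases before the start sites of both genes are shown. The sequences are RefSeq's for the build GRCm38.p6, 5′ to 3′ on each gene's own strand. Dpp4 lies on the minus strand at chr2:62330073-62412231 and its window is chr2:62412232-62412481. Pgr lies on the plus strand at chr9:8899833-8968611 and its window is chr9:8899583-8899832. Capitals mark 3 short motifs, each searched on both strands. They were the TATA box TATAAA, the CCAAT box CCAAT and the GC box GGGCGG.
Dpp4: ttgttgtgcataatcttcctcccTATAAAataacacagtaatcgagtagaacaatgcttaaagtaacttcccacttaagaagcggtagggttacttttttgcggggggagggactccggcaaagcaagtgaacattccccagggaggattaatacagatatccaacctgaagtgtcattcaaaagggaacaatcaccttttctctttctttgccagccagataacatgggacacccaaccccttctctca
Pgr: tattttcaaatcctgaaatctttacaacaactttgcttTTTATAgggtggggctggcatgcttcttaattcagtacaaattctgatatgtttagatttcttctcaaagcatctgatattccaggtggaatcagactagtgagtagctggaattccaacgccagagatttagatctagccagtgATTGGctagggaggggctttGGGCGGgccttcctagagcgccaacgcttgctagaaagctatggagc
The Dpp4 window held TATAAA 227 bases before the start and no other of these motifs. The Pgr window held TTTATA (the TATA box read on the opposite strand) 212 bases, ATTGG (the CCAAT box on the opposite strand) 67 bases and GGGCGG 47 bases before the start. Among 32851 windows of the same length, 12.4% held the TATA box letters, 33.8% the CCAAT box letters and 32.7% the GC box letters, so each match was a common one. The Dpp4 window lies in an intron of an antisense gene. Whether the counting used strand is not given in the sources used here, and the part of that gene in the Dpp4 counts was not tested.

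The rule's own genes chose the nuclei, and their values are a description. Type I and type III collagen transcripts filled most of S. Col1a1 had 546 UMIs in 47 of the 57 nuclei, Col1a2 had 1032 in 54 and Col3a1, which encodes the collagen of early scar, had 1129 in 54. Col5a1 had 435 UMIs in 51 nuclei, Postn (periostin) 366 in 43 and Pdgfra (a receptor for platelet-derived growth factor) 56 in 24. Background of these genes was gauged in the 219 macrophage-marked nuclei of the library. There Col1a1 had 70 UMIs in 55 nuclei at a median depth of 4944. Whether these UMIs came from free RNA or from barcodes with several nuclei was not tested. After each nucleus was thinned to 1000 UMIs, Col1a1 was found in 63.0% of 54 of the 57 nuclei and in 5.48% of the macrophage-marked nuclei. S itself ranged from 10 to 228 with a median of 34. Just inside the limit, 3 nuclei had an S of 10 and 2 had 11. Just outside it, 3 nuclei had an S of 9 and 2 had 8.

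The tie line was as thin on its other side. Among the 94 chondro-osteogenic nuclei, 19 lay 1 UMI past the tie. Their cartilage and bone sum had a median of 5.5 and a highest value of 680, and 36 of them held 10 or more such UMIs. Of the macrophage-marked nuclei, 12.8% held a cartilage or bone UMI and 4.57% a progenitor UMI. After thinning to 1000 UMIs these shares were 2.74% and 0.457%. Of the 57, 3.51% held a cartilage or bone UMI, which the rule held down, and 24.6% (14.1% to 37.8%) a progenitor UMI, or 1.85% and 11.1% after thinning. Both shares of the 57 use genes of the rule and are a description. Of 92 chondro-osteogenic nuclei thinned to 1000 UMIs, 65 (70.7%) kept a cartilage or bone UMI and the others lost all of theirs. The part of depth in the ties of 0 with 0 was not tested. Of the 32 endothelial-marked nuclei, 56.2% held a progenitor UMI. A nucleus 1 UMI past the tie carried no more of these genes than some macrophage-marked nuclei did.

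The progenitor UMIs themselves sat in few nuclei. All 57 together held 86, of which 69 (80.2%) were in 3 nuclei. These 3 were also the only ones of the 57 with Pgr. The first, with 5779 UMIs, had 5 of Dpp4, 2 of Pi16, 1 of Pgr and 5 of Cd34. The second, with 6927 UMIs, had 14 of Dpp4, 4 of Pi16, 3 of Pgr and 4 of Cd34. The third, with 9283 UMIs, had 19 of Dpp4, 1 of Pi16, 9 of Pgr and 2 of Cd34. Of the other 54 nuclei, 7 held Dpp4 or Pi16 without Pgr, and 47 held none of the 3. Over all 57, Dpp4 was found in 7 nuclei (43 UMIs), Pi16 in 6 (12 UMIs), Cd34, a sialomucin of progenitor, vessel and stromal cells, in 8 (16 UMIs) and Ly6a, which encodes the antigen Sca-1, in 2 (2 UMIs). In the chondro-osteogenic nuclei these genes had 3, 1, 4 and 5 UMIs, and Pgr had 0, which allows a share of up to 3.85% of nuclei with a UMI by the exact interval.

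Beyond the rule's genes the 57 nuclei were of several kinds. For description they were divided after their values were seen, first by the progenitor genes of the rule and then by muscle and mural marker lists that share no gene with it. A progenitor UMI was present in 14 nuclei. Of the other 43, 6 held at least as many UMIs of the muscle fibre and satellite cell lists as of S (muscle-marked). Another 4 held at least as many of the pericyte and smooth muscle list (mural-marked), and 33 met neither condition (unmarked). One of the 4 also carried satellite cell transcripts. It held 6 of the 89 Pax7 UMIs of the 57 nuclei and 17 UMIs of the muscle lists against an S of 18, and 21 of its 22 mural list UMIs were Notch3, which satellite cells express too. The muscle-marked nuclei were deep, with a median of 11865.5 UMIs against 3710 in the unmarked, while their S lay between 13 and 28. Whether a barcode held 1 nucleus or more was not tested.

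**Figure D1:**
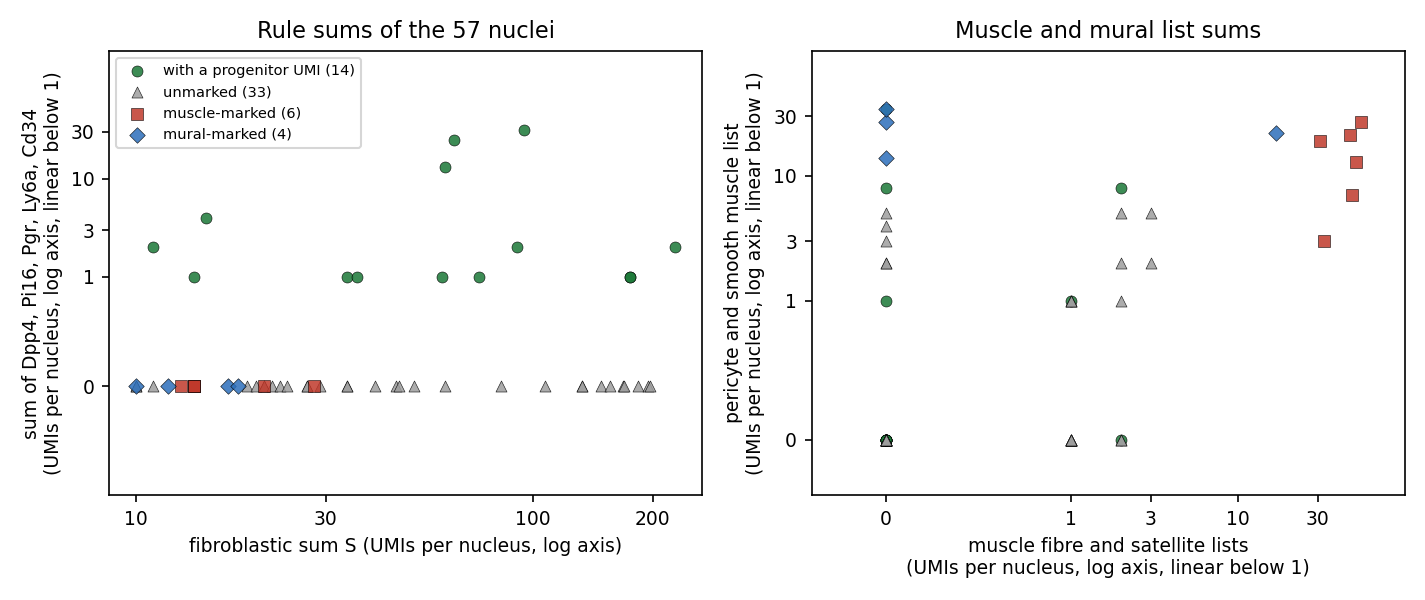
Each point is 1 of the 57 nuclei. Left, the fibroblastic sum S against the sum of the 5 progenitor genes, in UMIs per nucleus. Right, UMIs of the muscle fibre and satellite cell lists against those of the pericyte and smooth muscle list. Axes are logarithmic and linear below 1. The 3 nuclei with progenitor sums of 13, 25 and 31 stand apart on the left, and the 6 muscle-marked nuclei, with 31 to 55 muscle UMIs, stand apart on the right.

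In the 6 muscle-marked nuclei, the satellite cell list (stem cells of skeletal muscle) and its members Pax7 and Megf10 were among the values that chose the nuclei, and are given as a description. Their satellite cell and myoblast list had 165 UMIs (2421 CPM, the counts scaled to a total of 1000000, with an exact 95% Poisson interval of 2065 to 2820), against 5 UMIs (26.1 CPM) in the 33 unmarked nuclei and 0 in the 14 nuclei with a progenitor UMI. Pax7, the defining transcription factor of satellite cells, had 83 of its 89 UMIs in them. The 6 nuclei held 20, 1, 5, 13, 17 and 27 Pax7 UMIs. Fgfr4, a fibroblast growth factor receptor of muscle, had 51 UMIs in all 6 nuclei and 3 UMIs in the other 51 nuclei. Megf10, a surface receptor of satellite cells, had 44 and 4. Other leading genes of the 6 included Col19a1, with 39 UMIs against 1, and Pde1c, a phosphodiesterase, with 242 against 23. All 6 also held Notch3 UMIs.

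The 4 mural-marked nuclei led with Gucy1a2, a subunit of the nitric oxide receptor, at 32 UMIs in 3 nuclei against 7 in the other 53. Prkg1, the kinase downstream of that receptor, had 107 in 3 nuclei against 225, that is 4110 CPM against 648 CPM. Col4a2, a basement membrane collagen, had 19 against 27 and Gjc1, a gap junction protein of smooth muscle, 15 against 24. Their pericyte and smooth muscle list, which chose them, stood at 3726 CPM (3022 to 4546), against 177 CPM (123 to 248) in the unmarked nuclei. Myh11, the smooth muscle myosin, was uneven, with 19 of its 28 UMIs in 1 of the 4.

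The 3 nuclei with Pgr shared genes that the rule did not use. Sema3c, a secreted semaphorin, had 26, 18 and 44 UMIs in them and 37 UMIs in the other 54 nuclei together. Efemp1, an extracellular matrix protein of elastic fibres, had 33 UMIs against 12, and Nova1, a splicing factor, 35 against 27. Anxa3, an annexin, had 31 against 58. On the CPM scale these were 4002 against 105 for Sema3c, 1501 against 34.1 for Efemp1, 1592 against 76.8 for Nova1 and 1410 against 165 for Anxa3. The adventitial fibroblast list had 38, 71 and 84 UMIs in the 3 nuclei, 8777 CPM (7582 to 10106.6) in all. It stood at 2580 CPM (2120 to 3109) in the 7 nuclei with Dpp4 or Pi16 but no Pgr, and at 1477 CPM (1344 to 1619) in the 47 with none of these genes. The list of limb and mesenchymal transcription factors showed the same order, at 25558.2 CPM, 11116.6 CPM and 9755 CPM. These 3 groups of nuclei were divided by counts of the same nuclei and come from 1 library, so the order is a description.

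Sets of genes also led in the 33 unmarked nuclei. Brinp3 had 182 UMIs in 15 of them and 15 UMIs in the other 24 nuclei. Ccbe1, a secreted protein required for lymphatic growth, had 272 in 21 nuclei against 29. Loxl2, a lysyl oxidase that crosslinks collagen, had 23 against 2, Spon1 (F-spondin) 31 against 4 and Adamts3, a procollagen protease, 20 against 1. Against the chondro-osteogenic nuclei, all 57 nuclei stood at a ratio of 1.05 for Brinp3, 1.28 for Ccbe1, 0.431 for Spon1 and 0.445 for Adamts3. S reached 197 in the unmarked nuclei, and 10 of the 33 had an S of 100 or more.

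**Figure D2:**
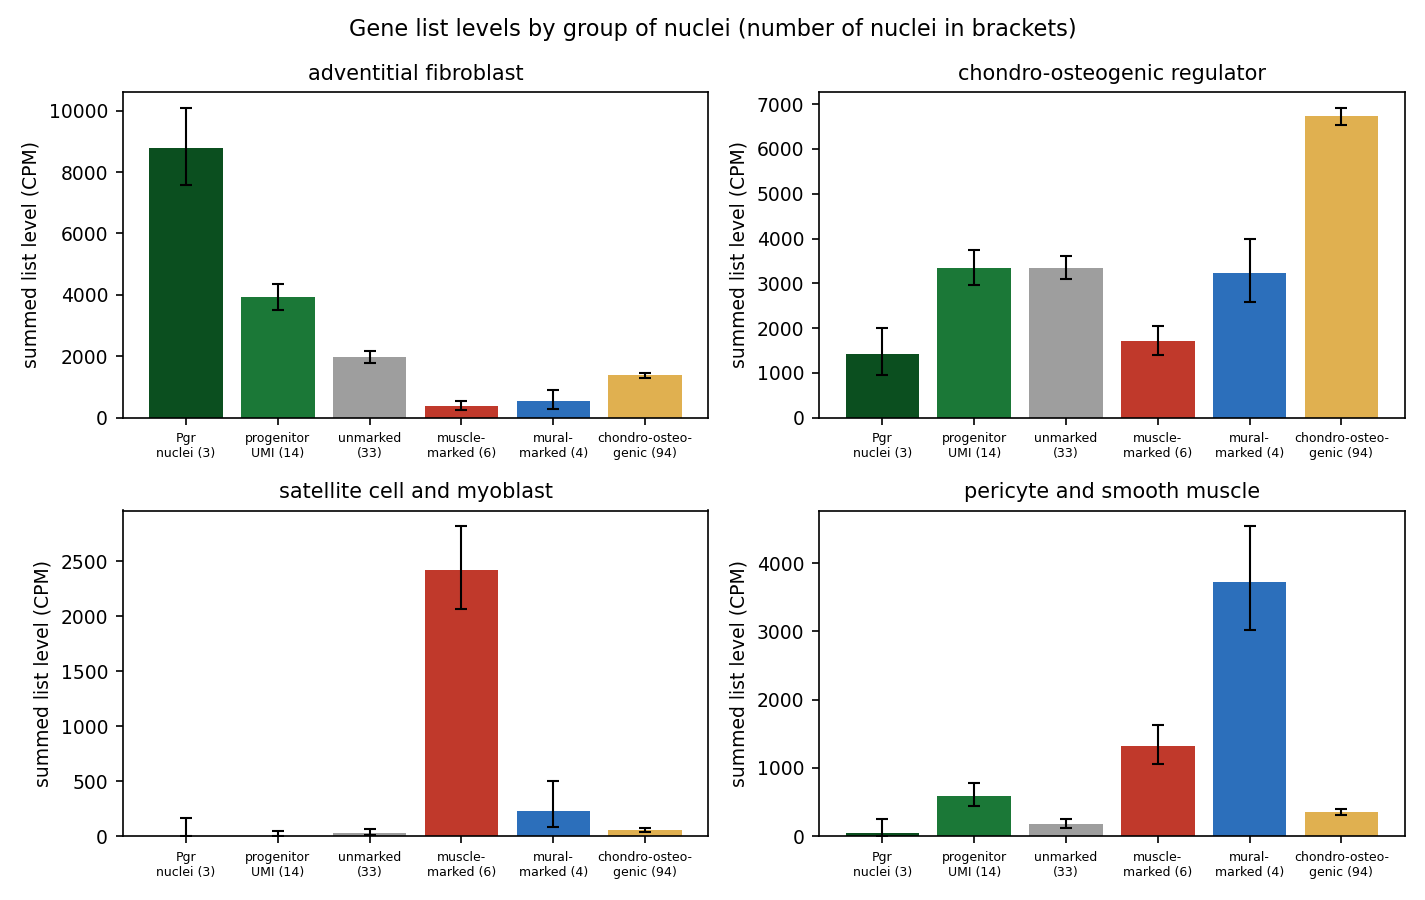
Bars are the summed level of 4 gene lists in CPM, with exact 95% Poisson intervals (counting error only), in the 3 nuclei with Pgr, the 14 with a progenitor UMI (which include those 3), the unmarked, muscle-marked and mural-marked nuclei, and the 94 chondro-osteogenic nuclei. The adventitial list was highest in the nuclei with Pgr at 8777 CPM, and the chondro-osteogenic regulator list in the chondro-osteogenic nuclei at 6729 CPM. The lists in the lower panels helped to choose the muscle- and mural-marked nuclei.

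Compared with all 1070 other retained nuclei, the 57 nuclei had more matrix, BMP and mesenchymal transcription factor transcripts. Of 12719 genes with at least 20 summed UMIs and not used by the rule, 1559 (12.3%) were at least 2-fold higher in the 57 and 2418 (19%) at least 2-fold lower, around a median ratio of 0.995. Fibrillar and associated collagens were at least 2-fold higher for 9 of 13 genes (median ratio 3.72), elastic fibre and crosslinking genes for 12 of 17 (3.98), BMP genes for 5 of 9 (4.40), and limb and mesenchymal transcription factors for 15 of 20 (2.56). None of these genes was at least 2-fold lower. Of the immune markers outside the rule, 4 of 4 were at least 2-fold lower. The rule chose nuclei with collagen UMIs and few macrophage UMIs, and the others included the macrophage-marked nuclei. Higher matrix and lower immune transcripts were thus favoured by the choice of nuclei, and are a description.

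Among the leading genes of this comparison were Medag, with 103 UMIs in 30 nuclei, 276 CPM against 19.2 CPM, a ratio of 14.4 (exact 95% interval 10.6 to 19.6), and Tmeff2 at 12.4. Sned1, a matrix protein, stood at 11.8. Col5a3, the type V collagen chain, had 188 UMIs in 37 nuclei and a ratio of 10.9 (8.85 to 13.4). Hs6st2, a heparan sulfate sulfotransferase, also had 10.9, but 216 of its 338 UMIs were in the 6 muscle-marked nuclei. The maternally expressed long noncoding RNAs of 1 imprinted cluster on chromosome 12 all led, at chr12:109541001-109571726 (Meg3), chr12:109603940-109661716 (Rian) and chr12:109729764-109749460 (Mirg) of mm10, plus strand. Meg3 had 1440 UMIs in 47 nuclei, with 0 to 202 per nucleus and a median of 7, and a ratio of 9.54 (8.88 to 10.2). Mirg stood at 9.04 and Rian at 7.73. Of the 1603 Meg3 UMIs in the other retained nuclei, 1307 were in the chondro-osteogenic nuclei. Against these alone Meg3 was under 2-fold without the 3 nuclei with Pgr, and at 2.43 without the muscle- and mural-marked nuclei. Matrix and guidance genes completed the list, with Adamts5, an aggrecan-cleaving protease, at 9.30, Col6a3, a type VI collagen chain, at 7.76 and Slit3, a guidance ligand, at 7.53. The others were Notch3 at 8.69, Adgrd1, an adhesion receptor, at 8.47 and Ackr3, a scavenging chemokine receptor, at 7.50.

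The nearest population was that of the chondro-osteogenic nuclei. Of 7348 genes compared, 552 (7.51%) were at least 2-fold higher in the 57 nuclei and 587 (7.99%) at least 2-fold lower, around a median ratio of 1.04. Lists are read against those shares. Over the 47 nuclei without the muscle- and mural-marked ones, 475 of 6954 genes (6.83%) were higher and 688 (9.89%) lower. Lists over the 47 are read against these.

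What led against the chondro-osteogenic nuclei depended on the muscle- and mural-marked nuclei. Among the leading genes, those that met the limits on UMIs and nuclei given below, Notch3 had the highest ratio, 8.50 (5.70 to 13.1). This receptor of mural and satellite cells had 140 UMIs in 14 nuclei against 30 in 7 of 94. The 6 muscle-marked nuclei held 82 of the 140 and the 4 mural-marked 46. Notch3 and Ttn stand on the lists that chose those nuclei. Without these 10 nuclei its ratio was 0.974 (0.454 to 1.96). The muscle genes Ttn (titin), Ano5 and Dag1 (dystroglycan) had ratios of 5.19, 5.86 and 5.82 with them and 0.369, 0.696 and 1.50 without. Igfbp5, a binding protein of insulin-like growth factors, went from 4.90 to 1.26 and Hs6st2 from 5.81 to 2.39.

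For Vegfa, Fam162a and Ackr3 the ratio was higher without those nuclei. Vegfa, the main growth factor of blood vessels, had 106 UMIs in 19 nuclei against 31 in 23, a ratio of 6.23 (4.14 to 9.62), and 7.39 without the 10 nuclei. Of its UMIs, 86 were in the unmarked nuclei. Fam162a, a mitochondrial protein, stood at 4.90 with the 10 nuclei and 5.997 without, and Ackr3 at 5.34 and 6.61. Col4a2 went from 4.93 to 3.01, with 19 of its 46 UMIs in the mural-marked and 6 in the muscle-marked nuclei. Without the 10 nuclei, the sugar metabolism genes Hk2 (hexokinase 2), at 5.34, and Gys1 (glycogen synthase), at 5.48, came among the first 10, together with Gas7 (5.75) and Fam78b (5.62).

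**Figure D3:**
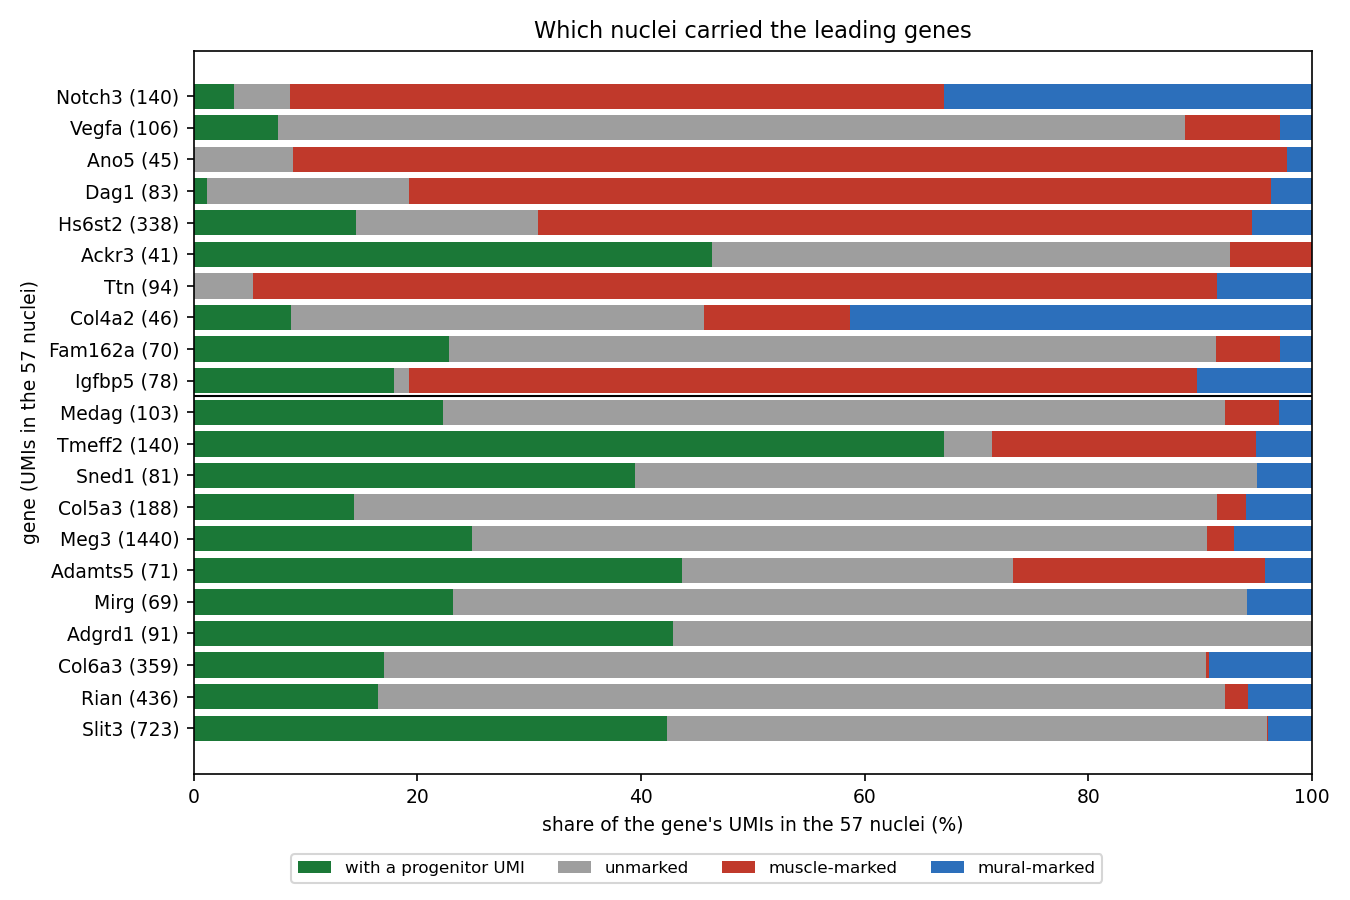
For each leading gene, the bar divides its UMIs in the 57 nuclei among the 4 groups of nuclei, in percent, with the number of UMIs in brackets. Genes above the line led against the chondro-osteogenic nuclei, those below led only against all other retained nuclei. Notch3, Ano5, Dag1, Hs6st2, Ttn and Igfbp5 lay mostly in the 6 muscle-marked nuclei, while Meg3, Col5a3 and Vegfa lay mostly in the 33 unmarked.

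The genes that led in the opposite direction were mostly those of cartilage and bone, the direction in which the rule divided the nuclei. Comp, a cartilage matrix protein, had 172 UMIs in 23 of the 94 chondro-osteogenic nuclei and 1 UMI in the 57, a ratio of 94.4 with an interval of 16.7 to 3751. Col9a3, with 155 UMIs against 1, and Col11a2, with 136 against 1, encode collagen chains of cartilage. Panx3, a channel protein of chondrocytes and osteoblasts, had 67 against 1 and Matn4, a matrilin, 46 against 1. Erg, a transcription factor of articular cartilage and endothelium, had 108 UMIs in 27 nuclei and 0 in the 57, so that it was at least 19.8-fold higher in the chondro-osteogenic nuclei, taking 3 UMIs over the 57 as the floor. Grb14, an adaptor of receptor signalling, had 267 against 8 (ratio 18.3). Rnf144b, with 71 against 2, Fras1, with 40 against 1, and Stk32b, with 39 against 1, completed the 10 leading genes.

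Regulators of the cartilage and bone lineages were low beyond the rule's genes. Of 18 listed, 13 could be compared, of which 9 were at least 2-fold lower and none at least 2-fold higher, with a median ratio of 0.142. Sox9, the master regulator of cartilage, had 5 UMIs in 3 of the 57 nuclei against 95 in 31 of 94, a ratio of 0.0959 (0.0304 to 0.232). Sp7, the osteoblast factor osterix, had 0 against 64, Fgfr3 0 against 48 and Runx3 0 against 26. Alpl, the alkaline phosphatase of mineralising cells, had 1 against 115. Sox6, a partner of Sox9, had 46 UMIs against 591, and 41 of the 46 were in the muscle- and mural-marked nuclei. Runx2, which acts in both lineages, differed less, with 443 UMIs in 38 nuclei against 1331 in 81 (ratio 0.606, 0.543 to 0.676), as did Trps1 (0.471) and Sox5 (0.936). Runx2 was also found in 29.7% of macrophage-marked nuclei.

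The adventitial fibroblast list went the other way. Of its 12 genes 7 could be compared, and 4 were at least 2-fold higher and none at least 2-fold lower, with a median ratio of 2.28. Ackr3 stood at 5.34, Anxa3 at 3.68 with 89 UMIs in 28 nuclei against 44 in 26, and Cd55, a complement inhibitor, at 3.38 (26 against 14, and 1.24 without the 3 nuclei with Pgr). Sema3c stood at 2.28 (1.74 to 2.99), with 88 of its 125 UMIs in the 3 nuclei with Pgr (0.716 without them). Fbn1 (fibrillin 1) had 396 UMIs in 49 nuclei and a ratio of 1.08 (0.951 to 1.22). Summed over the list, the 57 nuclei stood at 2033 CPM and the chondro-osteogenic nuclei at 1376 CPM, a ratio of 1.48 (1.34 to 1.63). Without the 3 nuclei the ratio was 1.17 (1.05 to 1.30), and over the 14 nuclei with a progenitor UMI alone 2.85. In the 47 nuclei without muscle- and mural-marked ones it was 1.87, and among nuclei with under 0.5% mitochondrial UMIs 1.11 (0.981 to 1.26).

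Collagens other than those of the rule were not higher as a group. Of 13 compared, 1 was at least 2-fold higher and 3 at least 2-fold lower, with a median ratio of 0.766. Over the 47 nuclei without the muscle- and mural-marked ones, 2 were higher and 4 lower, with a median ratio of 0.960. Of all genes compared there, 6.83% were higher and 9.89% lower. Col5a3 had 188 UMIs in 37 nuclei against 146 in 31 of 94, a ratio of 2.35 (1.88 to 2.93). It fell under 2-fold without the nucleus that held 34 of its UMIs. Col6a3 stood at 1.81. Col5a2, the most abundant of the list in UMIs, had 954 against 1902 (0.914). Col27a1 (0.327), Col24a1 (0.358) and Col8a2 (0.179) were the 3 lower genes, and the first pair are fibrillar collagens of cartilage and bone. Aspn (asporin), one of the markers the study used for IIFCs, had 100 UMIs in 25 nuclei against 418 in 61 (0.436), and Col8a1, another, 326 against 775 (0.766).

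Matricellular and provisional matrix genes were divided. Of 17 compared, 2 were at least 2-fold higher and 4 at least 2-fold lower (median ratio 0.953). Tnc, which encodes tenascin C of early wounds, had 504 UMIs against 386, a ratio of 2.38 (2.08 to 2.72), with 159 of the 504 in 1 nucleus (1.68 without it), and was found in 27 of 57 nuclei against 57 of 94. Has1, a hyaluronan synthase, stood at 4.94, with 11 of its 19 UMIs in 1 nucleus (2.16 without it). Vcan (versican) stood at 1.91 and Fn1 (fibronectin) at 0.571. Dcn (decorin, 0.324), Aspn, Cthrc1 (0.463) and Ccn5 (0.455) were lower. Without the 10 muscle- and mural-marked nuclei, 4 were higher and 2 lower (median ratio 1.10), against 6.83% and 9.89% of all genes compared. Aspn (0.560) and Cthrc1 (0.619) were then no longer past 2-fold, while Vcan stood at 2.13 and Tnc at 3.13. Among elastic fibre and crosslinking genes, 3 of 17 were at least 2-fold higher and 1 lower (median 1.32). Emilin2 stood at 5.24, Efemp1 at 2.48 (0.704 without the 3 nuclei with Pgr) and Loxl2 at 2.17, while Eln (elastin) stood at 0.373. Among matrix proteases and their inhibitors, 3 of 15 were higher and 1 lower (median 1.32). These were the ADAMTS proteases Adamts1 (4.71), Adamts15 (3.64) and Adamts5 (2.81), and Mmp16, a membrane metalloproteinase, at 0.151.

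**Figure D4:**
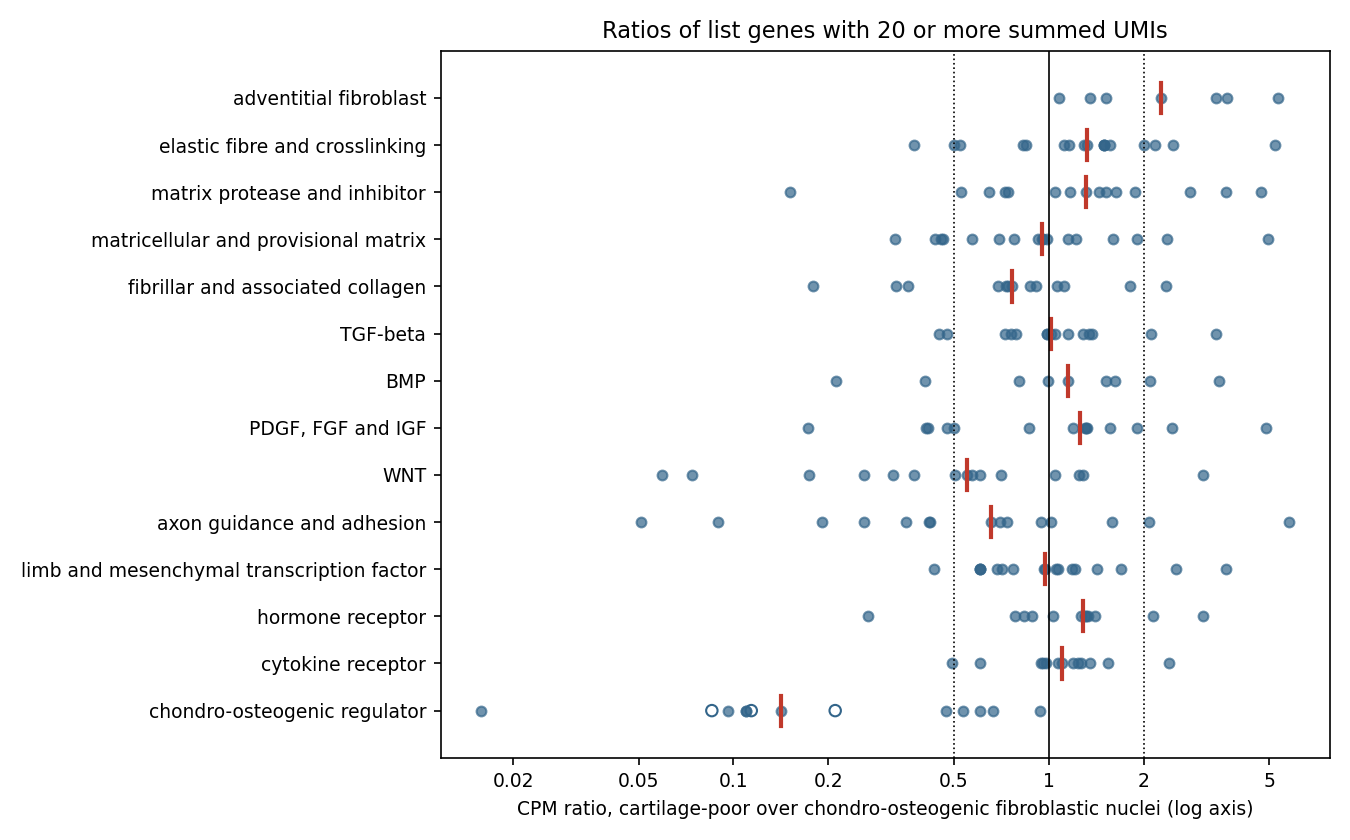
Each point is a gene with 20 or more summed UMIs, placed by its ratio of CPM in the 57 cartilage-poor over the 94 chondro-osteogenic nuclei (log axis). Rows are gene lists, red bars their medians, dotted lines a ratio of 0.5 and of 2, and open circles genes at 0 in the 57, placed at their upper bound. The chondro-osteogenic regulators lie at or left of 1 with a median of 0.142, and the adventitial list right of 1 with a median of 2.28.

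Among signalling genes, WNT and guidance genes were more often lower. Of 15 WNT genes compared, 6 were at least 2-fold lower and 1 higher, with a median ratio of 0.551. Lgr5, a receptor that amplifies WNT signals, had 4 UMIs, all in 1 muscle-marked nucleus, against 123 in 23 nuclei (0.0592). Its ligands Rspo2 (0.0738) and Rspo3 (0.174) were lower too, as were Wnt5b (0.260), Wnt5a (0.321, 3 UMIs against 17) and the inhibitor Sfrp2 (0.374). Wnt9a stood at 3.07, with 18 of its 27 UMIs in 1 nucleus (1.05 without it). Ror1, a WNT5A receptor, had 208 UMIs in 30 nuclei against 295 in 55 (1.28), but 128 of the 208 were in the muscle-marked nuclei and the ratio was 0.504 without the 10 marked nuclei. Of 15 axon guidance and adhesion genes, 7 were lower and 2 higher (median 0.654). The receptors Robo2 (6 UMIs against 215), Unc5c (10 against 204) and Epha3 (75 against 527) and the cadherin Cdh11 (119 against 615) were lower, and the netrin Ntn4 (5.80) and Plxna4 (2.07) higher.

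The growth factor lists were mixed in direction. TGF-beta genes had 2 higher and 2 lower of 15 (median 1.02). The inhibitor Smad7 stood at 2.12 and the activin subunit Inhba at 3.38, against 0.475 for the ligand Tgfb2 and 0.448 for Tgfb3. BMP genes had 2 higher and 2 lower of 9 (median 1.15), with Bmp6 at 3.47 from 69 of 80 UMIs in the muscle-marked nuclei and 0.406 without the 10 marked nuclei. Bmp5 stood at 0.405. Among PDGF, FGF and IGF genes, 2 of 14 were higher and 5 lower (median 1.25). Igf1, the ligand of the insulin-like growth factor receptor, had 19 UMIs in 8 nuclei against 201 in 35 (0.172, 0.101 to 0.276). Fgfr2 stood at 0.408, Fgf7 at 0.475 and Pdgfa at 2.46.

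Igf1 and Inhba also stand on the list of anti-inflammatory IIFC factors named by the study. Of its 5 genes compared, 1 was higher (Inhba, 39 UMIs in 13 nuclei against 21 in 14, with 19 of the 39 in 1 nucleus and a ratio of 1.79 without it) and 2 were lower (Igf1 and Tgfb3). Gas6, a ligand of macrophage clearance receptors, stood at 0.633. The summed list had a ratio of 0.548 (0.451 to 0.661). Of the pro-inflammatory IIFC factors it named, 3 could be compared and none passed 2-fold over all 57 nuclei. Csf1, a growth factor of macrophages, had 28 UMIs in 15 nuclei against 27 in 25 (1.89, 1.07 to 3.33), and Cxcl5, a chemokine of neutrophils, 13 in 2 nuclei against 24 in 5. The summed ratio was 1.23 (0.962 to 1.57). Without the 10 marked nuclei it was 1.34 (1.03 to 1.74), and Csf1 stood at 2.53. Of the transcription factors listed as pro-inflammatory, 2 of 7 were higher, Rela, a subunit of NF-kB, at 3.85 and Fos at 2.15. Neither of the 2 anti-inflammatory ones compared passed 2-fold. Cytokine receptors had 1 higher of 13, Il4ra at 2.41 (70 UMIs against 53), and 1 lower, Lifr at 0.493. Il4ra fell under 2-fold without the nucleus that held 22 of its UMIs. Complement genes (0 of 4) and immediate early and heat shock genes (0 of 4) had none past 2-fold over all 57 nuclei.

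The transcription factors of limb mesenchyme were near parity, with 2 of 17 higher and 1 lower (median 0.975). Over the 47 nuclei, 2 of 16 were higher and 3 lower (median 0.917), against 6.83% and 9.89% of all genes compared. Ebf1, which marks stromal lineages, had 1387 UMIs in 50 nuclei and a ratio of 1.21 (1.13 to 1.30), and Prrx1, a limb mesenchyme factor, 336 in 42 nuclei (1.07). Creb5 stood at 2.53, with 193 of its 303 UMIs in the 14 nuclei with a progenitor UMI (1.54 without the 3 nuclei with Pgr), Twist2 at 3.64 and Hoxa10 at 0.434. Among 12 hormone receptors 2 were higher and 1 lower. Esr1, the estrogen receptor, had 127 UMIs in 26 nuclei against 75 in 30, a ratio of 3.08 (2.30 to 4.16). Of the 127, 69 were in the muscle-marked nuclei, and without the 10 marked nuclei the ratio was 1.75. Nr3c2 stood at 2.14 (1.36 without the 10, where no hormone receptor was at least 2-fold higher) and Thrb, a thyroid hormone receptor, at 0.268. Cell cycle genes had 1 higher of 8, the inhibitor Cdkn1a at 8.65 (19 UMIs in 7 nuclei against 4 in 4). Top2a and Mki67, which mark dividing cells, stood at 0.967 and 0.696, and 28 of the 52 Top2a UMIs were in 1 muscle-marked nucleus. Over the 47 nuclei they stood at 0.373 and 0.493, and 2 of the 8 genes were higher and 2 lower.

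Markers of other cell types were present to different degrees. The muscle fibre list had a summed ratio of 3.42 (2.56 to 4.61) over the chondro-osteogenic nuclei, the satellite cell list 8.67 (6.05 to 12.7) and the pericyte and smooth muscle list 2.08 (1.74 to 2.49). Without the 10 marked nuclei, which these lists chose, they stood at 0.868, 0.329 and 0.877. The endothelial list, of whose 8 genes 4 belong to the rule, had 2.60, but 105 of the 178 UMIs of Cdh13 were in 1 muscle-marked nucleus. Its 4 genes outside the rule stood at 3.21 (2.55 to 4.06), and at 0.743 (0.497 to 1.09) without the 10 marked nuclei. The largest sum of the 4 endothelial rule genes in any of the 57 was 8. The macrophage and immune list, of whose 9 genes 5 belong to the rule, had 69 UMIs, 27 of them in 1 nucleus. Outside the rule, F13a1 had 25 against 51 (ratio 0.893) and Ptprc 15 against 30 (0.911), while Cx3cr1 was at 0. Neutrophil (18 UMIs), osteoclast (7), Schwann (14), perineurial (10), adipocyte (17) and erythroid (1) lists were sparse. Tenocyte markers summed to 198, of which Thbs4 gave 175 with 148 of them in 1 nucleus (a ratio of 2.82 with and 0.444 without it). Mkx, also on that list, had 19 UMIs in 8 nuclei against 96 in 26. Fmod had 1 UMI and 2 others of the list were at 0. The parenchymal fibroblast list was divided (3 of 8 higher, 3 lower), and its highest ratios over all 57 nuclei were those of the basement membrane collagens Col4a1 (7.17) and Col15a1 (17.9). The 4 mural-marked nuclei held 38 of 63 Col4a1 UMIs, and 1 of them held 43 of 49 Col15a1 UMIs. The contractile list had none higher and 1 lower of 4 (Tagln, 0.420), with a median ratio of 1.47 and a summed ratio of 1.67 (1.43 to 1.94), and 139 of its 318 UMIs were in 1 nucleus with a progenitor UMI. Without that nucleus the summed ratio was 0.964 (0.800 to 1.16). Over the 47 nuclei it was 1.91 with and 0.975 without that nucleus, and over the 14 with a progenitor UMI 3.80 with and 0.787 without. The adipogenic list had 1 higher of 4 (Cebpb, 2.73). Apart from the ratios given without the 10 nuclei, the part of these markers in the other differences was not tested.

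How alike the 57 nuclei were on genes the rule did not use was described by giving each nucleus to the population with the closest profile, its own UMIs left out. Of the 57, 29 (50.9%, exact interval 37.3% to 64.4%) went to their own population, 27 (47.4%) to the chondro-osteogenic nuclei and 1 to the remaining nuclei. All 3 nuclei with Pgr, all 6 muscle-marked and all 4 mural-marked went to their own. The profile of the 57 included the other nuclei of each of these groups. The population of muscle nuclei left out every nucleus that met the fibroblastic conditions. The assignment of the marked nuclei therefore does not show that they resembled the unmarked ones. Of the 33 unmarked nuclei 11 did and 21 went to the chondro-osteogenic profile. Of the 94 chondro-osteogenic nuclei, 85 went to their own profile and 5 to that of the 57. Among the 36 with 10 or more cartilage and bone UMIs none went to the 57. When only those 36 stood for the chondro-osteogenic nuclei, 52 of the 57 (91.2%) went to their own population. With 13 nuclei left after removal of all ties, none did. A UMI was added to every gene of each profile, which weighs more on a profile of few nuclei. The 14 nuclei with a progenitor UMI held 87504 UMIs, against 680202 in the chondro-osteogenic nuclei. How alike the nuclei of such small sets were cannot be read from these shares.

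**Figure D5:**
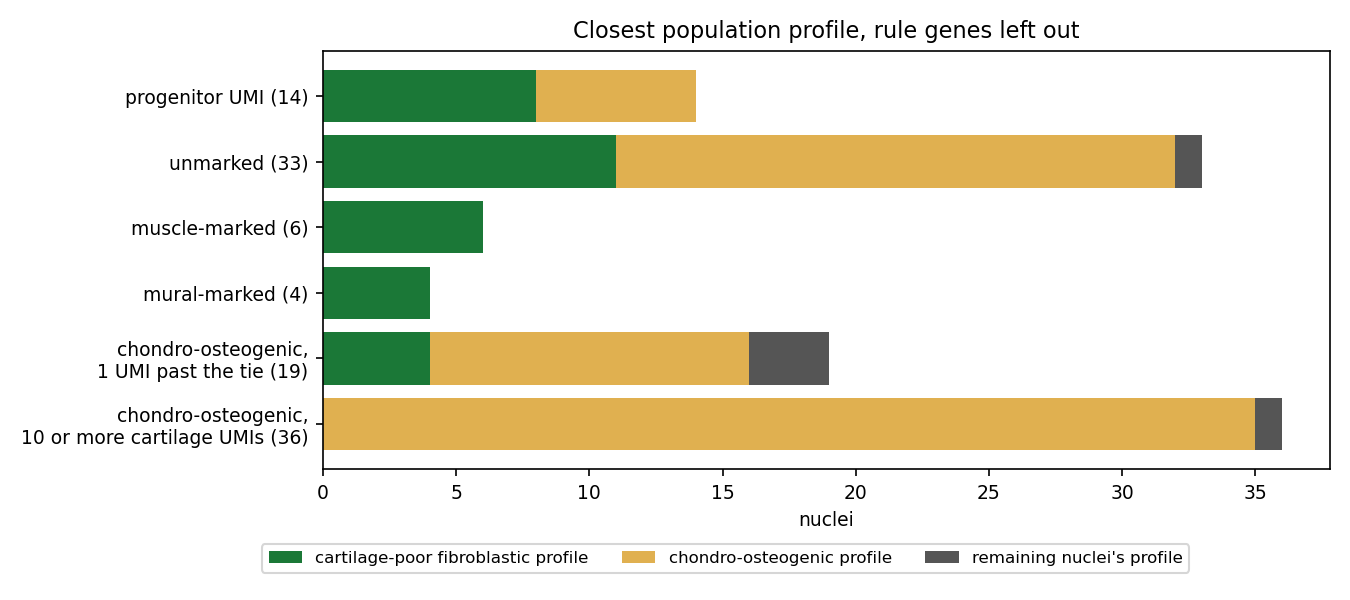
Bars count the nuclei of each group by the population whose profile was closest, over genes the rule did not use. The muscle- and mural-marked nuclei all stay with the 57, whose profile includes the other marked nuclei. Of the 33 unmarked nuclei, 21 lie closer to the chondro-osteogenic profile. Of the 19 chondro-osteogenic nuclei 1 UMI past the tie, 4 lie closer to the 57.

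The same rule and filters were counted in the day 1 library after fracture. There 5 of 5410 retained nuclei met them (0.0924%, exact interval 0.0300% to 0.216%), with 782 to 2773 UMIs each, and 2 of the 5 held a progenitor UMI. The median depth of retained nuclei was 382 UMIs at day 1, against 2364 at day 5. The shares of the libraries are given side by side and not compared.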

How the data were processed

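Single-nucleus 3′ RNA libraries were sequenced from 2 pools of mouse callus tissue. The authors aligned reads with Cell Ranger (7.0.1 per the submitters' notes) to mm10, introns included. The tables they deposited hold unnormalised UMI counts of 32285 genes in each barcode. The label text names a human reference, but every gene identifier is a mouse one. A barcode was retained when 200 to 5000 genes were detected and when mitochondrial transcripts gave less than 5% and ribosomal protein transcripts less than 2% of its UMIs, as the study did for this library. No doublet caller was run, and nuclei with muscle genes were kept. UMIs were summed over nuclei and scaled to CPM of the summed total. Ratios carry exact conditional binomial intervals, CPM exact Poisson intervals and shares exact Clopper-Pearson intervals, all at 95% and for counting error only. Genes with at least 20 summed UMIs and not used by the rule were compared, and a ratio of at least 2 or at most 0.5 counted as past 2-fold. A population at 0 was set to a floor of 3 UMIs. Each nucleus was given to the profile with the highest multinomial likelihood, after a UMI was added to every gene of each profile.

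Leading genes had at least 30 UMIs in the higher population, a UMI in at least 10% of its nuclei and no nucleus with over 25% of them. For the leading genes of the subgroups these limits were 15 UMIs, 30% of nuclei (60% for the nuclei with Pgr) and 50%. The 15 highest against all others and the 10 highest and lowest against the chondro-osteogenic nuclei are named, without mitochondrial, ribosomal, Gm and Rik genes. A few genes that met these rules are not reported here. Examples of each gene list came from its genes with most UMIs and those past 2-fold. Genes of the subgroups and of the 47 nuclei, and the subgroups themselves, were chosen after their values were seen. The members and lists were chosen with earlier results of these data known. The scripts were tested on simulated data. Python 3.11.15 with numpy 2.4.6 was used. Alternatives changed S (5 or 20), ties, depth (2000 UMIs), the mitochondrial limit (0.5%), the ribosomal limit, mixed nuclei, averaging and the UMI minimum. The other datasets of the study were not used here.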

Additional observations from a re-analysis of the deposited data

Results flagged for a closer look

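Among the 319 barcodes of the day 5 library that the filters removed, 27 (8.46%, exact interval 5.65% to 12.1%) met the marker conditions of the rule. They were looked at because they lie outside every comparison above and carry the same markers. Of the 27, 22 had 5% or more mitochondrial UMIs, 5 had over 5000 genes and 1 had 2% or more ribosomal UMIs. A progenitor UMI was present in 13 of them. Their 75 progenitor UMIs in 273176 gave 274 CPM (216 to 344), against 230 CPM (184 to 284) in the 57 retained nuclei. The progenitor genes belong to the rule, so both values are a description. Of the 86 progenitor UMIs of the 57, 69 were in 3 nuclei.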

How the results depend on the processing

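The 57 nuclei were set by the S limit and by ties. Their share of retained nuclei, 5.06%, was 7.28% with S of at least 5, 3.55% with S of at least 20, 7.44% among nuclei of at least 2000 UMIs, 1.15% without ties and 1.24% with a progenitor UMI required. The last of these, the omission of the muscle- and mural-marked or of the 3 highest nuclei, and the limit of 10 cartilage and bone UMIs were chosen after seeing the data. The adventitial list ratio of 1.48 stayed above 1 under every alternative run, at 1.64 with S of at least 20, 3.15 without ties, 1.11 (0.981 to 1.26, which includes 1) with a mitochondrial limit of 0.5%, 1.73 without mixed nuclei, 1.87 without the muscle- and mural-marked nuclei, 2.85 with a progenitor UMI, 1.17 without the 3 highest and 1.84 against chondro-osteogenic nuclei with 10 or more such UMIs. Against the chondro-osteogenic nuclei, genes at least 2-fold higher numbered 188 with a minimum of 50 UMIs and 4570 with a minimum of 1, and genes lower 258 and 1446. Genes lower numbered 1130 without ties and 994 with a progenitor UMI. Against all others, genes higher numbered 4711 without ties, 1027 and 11788 with minimums of 50 and 1, and 4225 with a progenitor UMI, and genes lower 1493 without ties. Own-profile assignment was 0% without ties, 7.14% with a progenitor UMI and 91.2% against chondro-osteogenic nuclei with 10 or more such UMIs. Each of these settings left a profile of fewer nuclei, where the UMI added to every gene weighs more. The shares therefore do not show how alike those nuclei were.

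Among the named genes that led or passed 2-fold, ratios to the chondro-osteogenic nuclei that crossed 1 were Ttn (0.623) with S of at least 5 and Cdh13 (0.420) with S of at least 20. With the mitochondrial limit of 0.5% they were Sema3c (0.774), Sfrp2 (1.81) and Tgfb2 (1.06), and without mixed nuclei Bmp6 (0.806) and Megf10 (0.463). Without the muscle- and mural-marked nuclei they were Ano5 (0.696), Bmp6 (0.406), Cdh13 (0.327), Megf10 (0.406), Notch3 (0.974), Ttn (0.369) and Pax7 (at most 0.562). Without the 3 highest nuclei they were Efemp1 (0.704) and Sema3c (0.716). Without ties they were Cdh13 (0.222), Col5a3 (0.998), Dag1 (0.350), Eln (1.24), Fgf7 (1.19), Loxl2 (0.434), Tagln (1.75), Thbs4 (0.725), Tnc (0.731), Ttn (at most 0.828) and Wnt9a (0.569). With a progenitor UMI they were Cdh13 (0.190), Dag1 (0.299), Eln (1.15), Fgf7 (1.18), Loxl2 (0.740), Megf10 (at most 0.972), Tagln (1.495), Thbs4 (0.894) and Ttn (at most 0.707). Of the 59 named genes at least 2-fold higher in the 57 nuclei, 39 stayed so without the nucleus that held most of their UMIs. This was another choice made after seeing the data. The other 20 fell under 2-fold, and Thbs4 (0.444) crossed 1. Those 20 were Adgrd1, Cd55, Cdh13, Col5a3, Creb5, Efemp1, Fos, Gucy1a2, Il4ra, Inhba, Loxl2, Meg3, Nr3c2, Pdgfa, Plxna4, Sema3c, Smad7, Thbs4, Tnc and Wnt9a. Apart from the change in which nuclei were counted, the cause was not tested. No paired analysis was possible because each condition has 1 library. Depth limits what the single progenitor UMIs of 7 nuclei can show.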
